A study of Homo sapiens with 6 samples.

Results

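The genes described here were 45 human genes of the G2 and M phases of the cell cycle, the mitosis genes, listed by role: cyclins and their kinase, spindle kinases and spindle factors, the spindle checkpoint, the chromosomal passenger complex, the anaphase machinery, kinetochore, condensin, cytokinesis and 2 transcription factors. Kinesin genes were left out, except that *CENPE*, a kinetochore motor, was listed as a kinetochore gene. All 45 were among the 67060 genes of the count table, and 44 were among the 24500 genes that passed the filter on low counts and were tested. The exception, *SPC25*, had 0 or 1 counts in each library. The rule for members used gene names and roles and no measured value, but members were chosen with earlier results of these data known.

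SH-SY5Y cells, a human neuroblastoma line labelled as a neuronal progenitor, were grown on 10 cm plates and infected with an adenovirus in both groups, with 0.5 ul of virus per the labels. The control group received Ad CMV GFP and the other group Ad CMV 3xFlag-Esrrg, which carries the coding sequence of mouse *Esrrg* with a Flag tag behind the CMV promoter, a promoter active in most cell types. *Esrrg* encodes ERRγ, an orphan nuclear receptor known as an activator of mitochondrial and energy metabolism genes. Total RNA was collected after 24 h from both groups, ribosomal RNA was removed, and strand-preserving libraries were sequenced. The labels call the treatment a transfection. There were 3 libraries per group, numbered 1, 3 and 4 with GFP and 2, 3 and 4 with *Esrrg*, and values of libraries are given in this order throughout. No source says whether the libraries came from separate cultures, so p-values measure the spread between these libraries, which may be technical.

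Cells enter mitosis when cyclin B and its kinase *CDK1* are switched on by CDC25 phosphatases, and they leave it when the anaphase promoting complex, with its activator *CDC20*, has cyclin B and securin destroyed. Most genes of this programme are transcribed late in the cell cycle. They share promoter elements, a cell cycle genes homology region (CHR) and CCAAT boxes, through which the DREAM complex keeps them low in resting cells and the B-MYB and *FOXM1* complexes raise them in dividing cells. Their summed RNA level is widely used as a measure of how many cells of a sample are dividing, and SH-SY5Y cells divide in culture. In RNA from whole cultures, fewer cells in mitosis and less of a transcript per mitotic cell cannot be told apart.

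The targeted gene was checked before the others. *ESRRG* had 2357, 2796 and 2876 counts with GFP and 15228, 25994 and 26497 counts with *Esrrg*. In counts per 1000000 scaled by edgeR's TMM factors (normalised CPM), these were 83.6, 90.4 and 86.9 with GFP and 570, 772 and 778 with *Esrrg*. All *Esrrg* libraries were above all GFP libraries, and replicate 2 was the lowest of the *Esrrg* group. The log2 fold change was 3.02 ± 0.14 (SE, adjusted p = 6.28e-07, edgeR's quasi-likelihood test). Reads from the mouse coding sequence and from the cells' own *ESRRG* were not separated.

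The libraries differed in more than the receptor. Reads counted on genes ranged from 24969759 to 29700980 with GFP and from 26513620 to 40859666 with *Esrrg*. Reads that fell outside genes made up 51.3% to 52.2% of the reads with GFP, but 46.6%, 31.6% and 29.5% in *Esrrg* replicates 2, 3 and 4. *Esrrg* replicate 2 thus stood nearer to the GFP libraries than the other two did. The median log2 fold change was -0.10 over all tested genes and 0.12 over the 13746 protein-coding genes tested, and it was -0.42 over all tested genes when only library size was used for scaling. Of 11 adrenergic neuroblastoma markers, 9 were tested, 2 were called higher (*PHOX2A* and *GAP43*) and 2 lower (*DBH* and *STMN2*) by the rule given below, and *TH* and *CHGA*, which define catecholamine and secretory cells, had 0 counts in all 6 libraries. For *CHGA* 90.2% of the words of 31 bases were also on alternate contigs of GRCh38, and for *TH* 0%. The summed level of these markers was 777.9 to 836.5 CPM with GFP and 590 to 780 CPM with *Esrrg*. All 11 mesenchymal markers were tested, of which 1 was called lower (*YAP1*) and the other 10 were not called, and their sum was 8771 to 8963 CPM with GFP and 8911 to 9932 CPM with *Esrrg*. With *TH* and *CHGA* at 0, the markers leave the identity of the line in question, and SH-SY5Y is used here as the name on the labels. The part of the marker differences in the results below was not tested.

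The mitosis genes did not move as a block. Calls needed a change of at least 1.5-fold and a p that stayed below 0.05 after Benjamini-Hochberg adjustment over all tested genes. By this rule 12 of the 44 tested members fell (27.3%), where 16.8% of all tested genes and 12.4% of protein-coding genes were called lower. Another 6 rose (13.6%), where 17.3% of all tested genes and 25.9% of protein-coding genes were called higher. The 26 others were not called. The genes that fell were *ASPM*, *CENPE*, *KNL1*, *MKI67*, *CENPF*, *TTK*, *NCAPG*, *TOP2A*, *HMMR*, *SMC2*, *NUF2* and *ECT2* and came from the spindle, checkpoint, kinetochore, chromosome and cytokinesis groups. The genes that rose were *CDC20*, *PTTG1*, *CCNB1*, *AURKB*, *UBE2C* and *AURKA* and came from the cyclin, spindle, passenger complex and anaphase groups. The spindle group, of Polo and Aurora A kinases and spindle factors, held both *AURKA*, which rose, and *ASPM* and *HMMR*, which fell. The median log2 fold change of the 44 members was -0.16, with a range from -1.25 (*ASPM*) to 0.79 (*CDC20*).

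**Figure D1:**
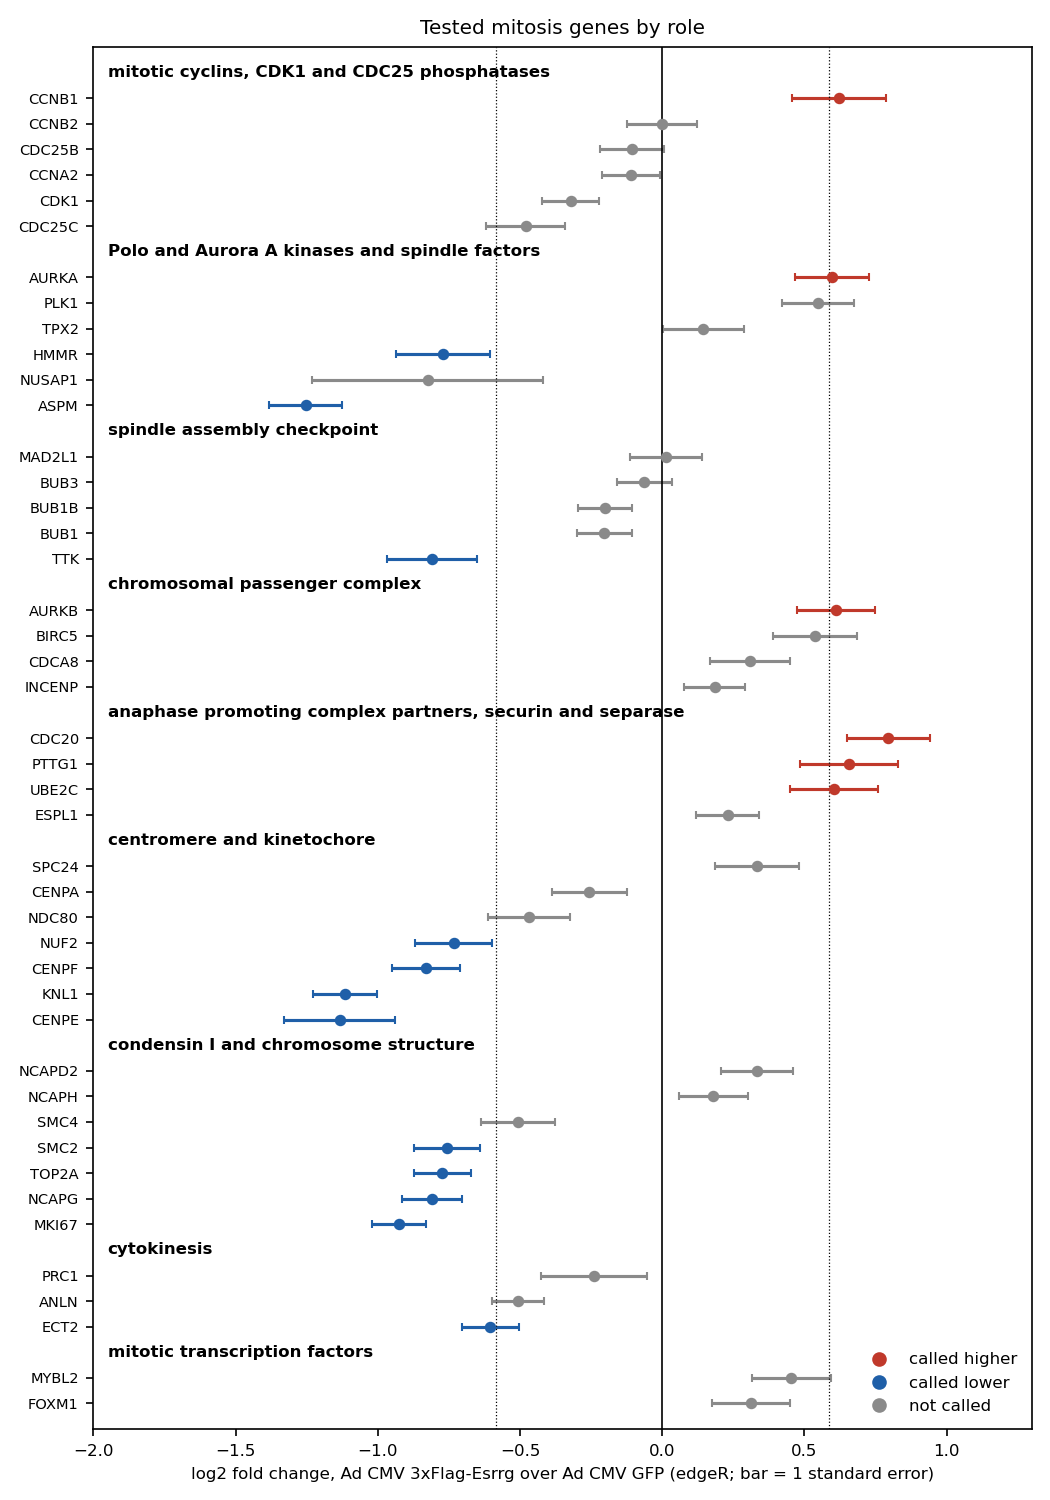
Log2 fold change of each of the 44 tested mitosis genes, Ad CMV 3xFlag-Esrrg over Ad CMV GFP (x axis; bars, 1 standard error; n = 3 libraries per group), grouped by role; red and blue mark genes called higher and lower, and dotted lines mark 1.5-fold. Genes called lower lie in the spindle, checkpoint, kinetochore, chromosome and cytokinesis groups, down to -1.25. The spindle group also holds *AURKA*, called higher, and 3 of the 6 genes called higher are anaphase genes.

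Without the fold cutoff, 17 members were lower and 10 higher at an adjusted p below 0.05, where 23.5% of all tested genes were lower and 24.3% higher. The libraries of the 2 groups did not overlap for 20 members that were lower (background 30.3%) and 9 that were higher (background 27.8%) with *Esrrg*. All 18 called members were among these. Within the GFP group, replicate 1 was the lowest library for 37 of the 44 members and replicate 3 the highest for 33. Within the *Esrrg* group, replicate 2 was the lowest library for 6 of the 6 members called higher and the highest for 10 of the 12 called lower, so it lay nearer to the GFP libraries in both directions. The summed CPM of all members was 2368, 2769 and 2500 with GFP and 2041, 2313 and 2287 with *Esrrg*. Each *Esrrg* sum lay below each GFP sum, and the gap between the groups was smaller than the spread within either.

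**Figure D2:**
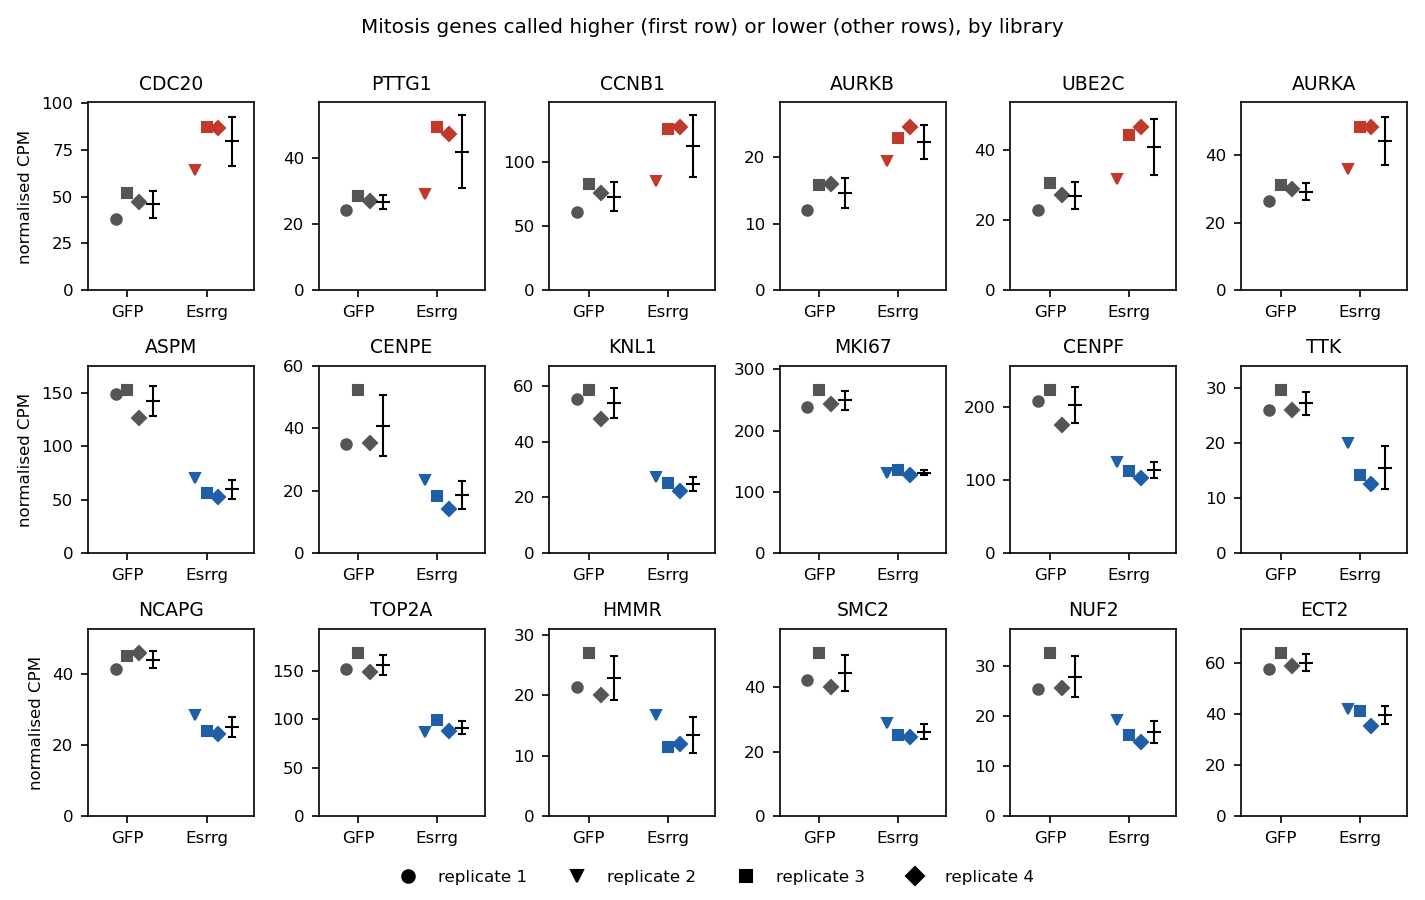
Normalised CPM (y axis, from 0) of the 18 called mitosis genes in each library, GFP in grey and *Esrrg* in colour, with mean ± SD (n = 3) as black bars beside the points. *CDC20* rises from 38.1 to 52.1 CPM with GFP to 64.4 to 87.1 CPM with *Esrrg*, and *Esrrg* replicate 2 is the lowest *Esrrg* library in every panel of the first row.

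The promoters were searched because the members are known for shared elements there. RefSeq promoter windows (GRCh38.p14, 250 bases before to 50 after each start site) were found for 37 of the 45 members. *AURKA*, *TPX2*, *BUB3*, *TTK*, *BIRC5*, *UBE2C*, *KNL1* and *FOXM1* had no entry. Both strands were searched. The CHR was searched as TTTGAA or TTCGAA, of which TTCGAA reads the same on both strands. The CCAAT box was searched by these letters. The core of an ERR binding element was searched as AAGGTCA. E2F-like words were TTTCGCGC and TTCCCGCC. None of these words contains another. A CHR word was in the window of 29 of 37 members (78.4%) and of 19.5% of 27305 RefSeq genes. CCAAT was in 28 of 37 members (75.7%) and in 39.7% of all genes. The E2F-like words were in 4 of 37 members (10.8%) and in 4.38% of all genes. AAGGTCA was in 0 of 37 members and in 4.8% of all genes, which says only that these letters were not in these windows. By call, CHR was in 9 of the 10 genes with a window that fell, in 1 of the 4 that rose and in 19 of the other 23. These 23 were members not called, together with *SPC25*, which was not tested and had CHR and CCAAT in its window. CCAAT was in 6 of 10, 4 of 4 and 18 of 23. When only the bases before the start site were searched, CHR was in 22 of 37 members (59.5%) and in 17.2% of all genes. By call it was then in 6 of 10 genes that fell (60.0%), 1 of 4 that rose and 15 of the other 23 (65.2%). The order of the genes that fell and these 23 thus depended on the window.

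The following CHR windows are shown so that genes that fell (*MKI67*, *NCAPG*, *HMMR*), the gene that rose most (*CDC20*) and genes not called (*CCNB2*, *PLK1*, *CDCA8*) can be compared, with the CHR in capitals. All are written 5′ to 3′ on the strand of the gene. *MKI67* lies on the minus strand at chr10:128126435-128126464 and the others on the plus strand, *NCAPG* at chr4:17810932-17810961, *HMMR* at chr5:163460592-163460621, *CDC20* at chr1:43358904-43358933, *CCNB2* at chr15:59105105-59105134, *PLK1* at chr16:23678848-23678877 and *CDCA8* at chr1:37692481-37692510.
MKI67: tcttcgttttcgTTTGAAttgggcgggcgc
NCAPG: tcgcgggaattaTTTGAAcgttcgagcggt
HMMR: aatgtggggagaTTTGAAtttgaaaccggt
CDC20: cgacggttggatTTTGAAggagccaatagg
CCNB2: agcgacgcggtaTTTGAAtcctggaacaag
PLK1: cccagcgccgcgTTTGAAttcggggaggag
CDCA8: gtgactgtggagTTTGAAttgggtggcggt
Counted from the start site, the first capital lies at -29 in *MKI67*, *CCNB2* and *PLK1*, at -35 in *NCAPG*, -28 in *HMMR*, -23 in *CDCA8* and -65 in *CDC20*. *HMMR* has a second CHR directly after the first, at -22. The stretch shown of *CDC20* also holds a CCAAT box, at -55. Those of *MKI67* and *CDCA8* hold one on the opposite strand, which reads ATTGG, at -24 and -18. The capitals are the same because each window was picked for a TTTGAA word, so they carry no comparison between the calls.

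*CCNB1*, *AURKB* and *PTTG1* rose and had CCAAT but no CHR word in the window. A CCAAT box of *CCNB1* and of *AURKB* is shown in capitals, *CCNB1* at chr5:69167083-69167111 on the plus strand with the box at -55, and *AURKB*, whose box lies on the opposite strand and reads ATTGG, at chr17:8210362-8210390 on the minus strand.
CCNB1: gccacgaacaggCCAATaaggagggagca
AURKB: accagcgcccagATTGGggctagtgtgct

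Among the cyclins, their kinase and the CDC25 phosphatases, 1 of 6 genes rose by the call rule and the other 5 were not called. *CCNB1*, cyclin B1, the cyclin that drives entry into mitosis, was at 60.6, 82.8 and 75.6 CPM with GFP and at 84.7, 125 and 127 CPM with *Esrrg*. *Esrrg* replicate 2 was only just above the highest GFP library, and the groups did not overlap. The log2 fold change was 0.62 ± 0.16 (SE, adjusted p = 0.0101), or 1.54-fold. *CDC25C*, a phosphatase that activates the *CDK1* and cyclin B pair, was at 7.56, 9.02 and 9.24 CPM with GFP and at 6.06, 5.64 and 6.81 CPM with *Esrrg*. Its groups did not overlap, and its log2 fold change was -0.48 ± 0.14 (SE, adjusted p = 0.0161), under 1.5-fold. *CDK1*, the kinase itself, also passed the adjusted p but not the fold cutoff (-0.32 ± 0.10, adjusted p = 0.0217). *CCNA2* (-0.11), *CCNB2* (-0.0012) and *CDC25B* (-0.11) did not pass, and their groups overlapped.

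*CCNB1* thus parted from *CCNB2* and *CDK1*, and ratios of counts within each library show this without any scaling. These ratios, and those of other pairs below, use the same counts as the calls. They restate the calls and are no separate support. The ratio of *CCNB1* to *CCNB2* counts was 1.95, 2.2 and 2.08 with GFP and 2.87, 3.45 and 3.25 with *Esrrg*. The ratio of *CCNB1* to *CDK1* counts was 1.49, 1.87 and 1.68 with GFP and 2.7, 3.35 and 3.62 with *Esrrg*. Neither ratio overlapped between the groups. How often the ratios of other gene pairs overlap was not computed, and the groups did not overlap for 58.1% of all single tested genes. With 3 libraries against 3, an exact two-sided permutation test cannot give a p below 0.1, so no test of these ratios was made.

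Of 6 Polo and Aurora A kinases and spindle factors, 1 rose and 2 fell. *AURKA*, Aurora A, a kinase of centrosome maturation and spindle assembly, was at 26.4, 31.3 and 30 CPM with GFP and at 36.0, 48.3 and 48.3 CPM with *Esrrg*. All *Esrrg* libraries were above all GFP libraries, with a log2 fold change of 0.60 ± 0.13 (SE, adjusted p = 0.00341), just over 1.5-fold. *PLK1*, Polo-like kinase 1, which acts from mitotic entry to cytokinesis, was just outside the cutoff at 0.55 ± 0.13 (adjusted p = 0.00507), with no overlap. *TPX2*, which activates Aurora A on the spindle, was at 0.14 (adjusted p = 0.418), and its groups overlapped.

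*ASPM*, a spindle pole protein needed for normal brain size, showed the greatest drop of all 44 members. Its libraries were at 148, 152 and 126 CPM with GFP and at 70.0, 56.5 and 52.5 CPM with *Esrrg*. The means were 142 ± 14.1 and 59.7 ± 9.18 CPM (SD, n = 3 each), a 2.39-fold drop (log2 fold change -1.25 ± 0.13, SE, adjusted p = 5.73e-05). *HMMR*, a spindle and hyaluronan binding protein, fell 1.71-fold (-0.77 ± 0.16, adjusted p = 0.00314). *NUSAP1*, which binds spindle microtubules, was at 0.53, 1.26 and 0.57 CPM with GFP and at 0.45, 0.33 and 0.56 CPM with *Esrrg*, with overlap and an adjusted p of 0.118. These levels rest on 11 to 39 counts per library, and in GENCODE release 44 another gene on the same strand, together with *OIP5* and *OIP5-AS1*, covers 86.8% of the exon bases of *NUSAP1*. Reads there that HTSeq-count cannot assign to a single gene would be missing from its count.

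Of 5 spindle checkpoint genes, 1 fell and the other 4 were not called. *TTK*, the kinase MPS1 that starts checkpoint signalling at unattached kinetochores, was at 26.0, 29.7 and 26.0 CPM with GFP and at 20, 14.1 and 12.6 CPM with *Esrrg*. The groups did not overlap, and the log2 fold change was -0.81 ± 0.16 (SE, adjusted p = 0.00196). *BUB1*, another checkpoint kinase, was at 40.7, 46.6 and 47.6 CPM with GFP and at 40.2, 39.8 and 37.1 CPM with *Esrrg*. Its groups were apart by a small gap, and the difference of -0.20 did not pass (adjusted p = 0.106). *BUB1B* (-0.20), *BUB3* (-0.064) and *MAD2L1* (0.013), which act in the complex that holds back the anaphase promoting complex, did not pass either. The ratio of *TTK* to *BUB1B* counts was 0.727, 0.806 and 0.648 with GFP and 0.63, 0.407 and 0.398 with *Esrrg*, and *Esrrg* replicate 2 was close to the lowest GFP library.

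All 4 genes of the chromosomal passenger complex, which corrects wrong attachments of chromosomes to the spindle, had fold changes above 0, and 1 passed the call. *AURKB*, its kinase Aurora B, was at 12, 15.8 and 15.9 CPM with GFP and at 19.4, 22.9 and 24.5 CPM with *Esrrg*. The groups did not overlap, and the log2 fold change was 0.61 ± 0.14 (SE, adjusted p = 0.00414). *BIRC5*, survivin, was at 43.4, 58.2 and 54.4 CPM with GFP and at 60.1, 82.3 and 83.9 CPM with *Esrrg*, and at 0.54 ± 0.15 (adjusted p = 0.0124) it was just under 1.5-fold. The scaffold *INCENP* (0.18, adjusted p = 0.18) and borealin, *CDCA8* (0.31, adjusted p = 0.0927), did not pass, and the sign of both depended on the fit. *INCENP* was at -0.22 (adjusted p = 0.0251) with GC and length in the fit and at -0.23 (adjusted p = 0.00674) with these over protein-coding genes. *CDCA8* was at -0.15 (adjusted p = 0.114) in the latter fit, and with library size scaling the pair was at -0.14 and -0.026. The ratio of *AURKB* to *INCENP* counts was 0.299, 0.363 and 0.357 with GFP and 0.458, 0.46 and 0.456 with *Esrrg*, so the kinase was higher relative to its scaffold in every *Esrrg* library.

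The anaphase genes held 3 of the 6 genes that rose. *CDC20*, the activator of the anaphase promoting complex in mitosis, was at 38.1, 52.1 and 47.1 CPM with GFP and at 64.4, 87.1 and 86.8 CPM with *Esrrg*. The means were 45.8 ± 7.09 and 79.4 ± 13.0 CPM (SD, n = 3 each), a rise of 1.73-fold (0.79 ± 0.15, SE, adjusted p = 0.00135) with no overlap. *PTTG1*, securin, which holds the protease separase in check, was at 24.4, 28.7 and 27.0 CPM with GFP and at 29.3, 49.5 and 47.3 CPM with *Esrrg*. Its rise of 0.66 ± 0.17 (SE, adjusted p = 0.01) came mostly from *Esrrg* replicates 3 and 4, since replicate 2 was within 1 CPM of the highest GFP library. *UBE2C*, the ubiquitin-conjugating enzyme that works with the anaphase promoting complex, was at 22.9, 30.6 and 27.2 CPM with GFP and at 31.7, 44.3 and 46.5 CPM with *Esrrg* (0.60 ± 0.15, SE, adjusted p = 0.00854). Here too replicate 2 lay close above the GFP group. *ESPL1*, separase, did not pass (0.23, adjusted p = 0.108).

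Of the 8 centromere and kinetochore genes 7 were tested, of which 4 fell and 3 were not called. *CENPE*, the motor that moves chromosomes to the spindle equator, was at 34.9, 52.2 and 35.3 CPM with GFP and at 23.4, 18.2 and 14.3 CPM with *Esrrg*. GFP replicate 3 stood above the other GFP libraries, the groups did not overlap, and the log2 fold change was -1.13 ± 0.20 (SE, adjusted p = 0.00095). *KNL1*, the outer kinetochore scaffold on which checkpoint proteins assemble, was at 55.2, 58.4 and 47.9 CPM with GFP and at 27.3, 25 and 22.3 CPM with *Esrrg*. Its drop was 2.17-fold (-1.12 ± 0.11, SE, adjusted p = 5.73e-05), with little spread in either group. *CENPF*, a large protein of the outer kinetochore, fell 1.78-fold from a range of 175 to 224 CPM to 104 to 125 CPM (-0.83 ± 0.12, adjusted p = 0.000316).

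Of the 4 subunits of the *NDC80* complex, which binds microtubules, 3 were tested. *NUF2* fell (-0.73 ± 0.14, adjusted p = 0.00138), *NDC80* was lower but under 1.5-fold (-0.47 ± 0.14, adjusted p = 0.021), and *SPC24* was at 0.33 and did not pass (adjusted p = 0.088). *SPC24* was below 0 in 4 other fits, at -0.15 with GC and length over protein-coding genes, -0.20 with reads outside genes as a covariate, -0.013 with *Esrrg* replicate 2 alone and -0.0036 with library size scaling. The ratio of *NUF2* to *SPC24* counts was 1.54, 1.58 and 1.31 with GFP and 1.03, 0.652 and 0.538 with *Esrrg*, with no overlap. *SPC25* had 0, 1 and 0 counts with GFP and 0, 0 and 1 with *Esrrg*. Of the words of 31 bases in its transcripts 83.9% were also on alternate contigs of GRCh38, against 15.3% for *SPC24*, the next highest member. Whether the reads were lost for that reason was not tested. *CENPA*, the histone variant of the centromere, was at -0.26 (adjusted p = 0.136).

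Of 7 condensin I and chromosome structure genes, 4 fell and 3 were not called. *MKI67*, the Ki-67 proliferation antigen, which coats mitotic chromosomes, was at 239, 266 and 243 CPM with GFP and at 131, 135 and 127 CPM with *Esrrg*. The *Esrrg* libraries differed by less than 9 CPM from each other and lay far below the GFP group (1.9-fold, -0.93 ± 0.09, SE, adjusted p = 5.95e-05). *TOP2A*, the topoisomerase that untangles sister chromatids, fell 1.71-fold (-0.77 ± 0.10, adjusted p = 0.000183). *NCAPG*, the HEAT-repeat subunit G of condensin I, was at 41.3, 44.9 and 45.8 CPM with GFP and at 28.3, 23.9 and 23.2 CPM with *Esrrg*. It fell 1.75-fold (-0.81 ± 0.11, SE, adjusted p = 0.000203) with no overlap, and 33.7% of its exon bases lie opposite *LCORL*, whose reads can be told apart only if strand was used in counting.

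The subunits of condensin I differed in their calls. *SMC2*, a core ATPase shared by both condensins, fell (-0.76 ± 0.12, adjusted p = 0.000492), and its partner *SMC4* was lower by less than 1.5-fold (-0.51 ± 0.13, adjusted p = 0.00861). *NCAPD2* was higher by less than 1.5-fold (0.33 ± 0.13, adjusted p = 0.0494) with overlapping groups, and was at -0.037 with the covariate for reads outside genes, and *NCAPH* was at 0.18 (adjusted p = 0.244). The ratio of *NCAPG* to *NCAPD2* counts was 0.326, 0.289 and 0.304 with GFP and 0.184, 0.128 and 0.114 with *Esrrg*. The ratio of *SMC2* to *SMC4* counts moved less, from 0.389, 0.352 and 0.358 to 0.301, 0.306 and 0.316, and did not overlap either.

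**Figure D3:**
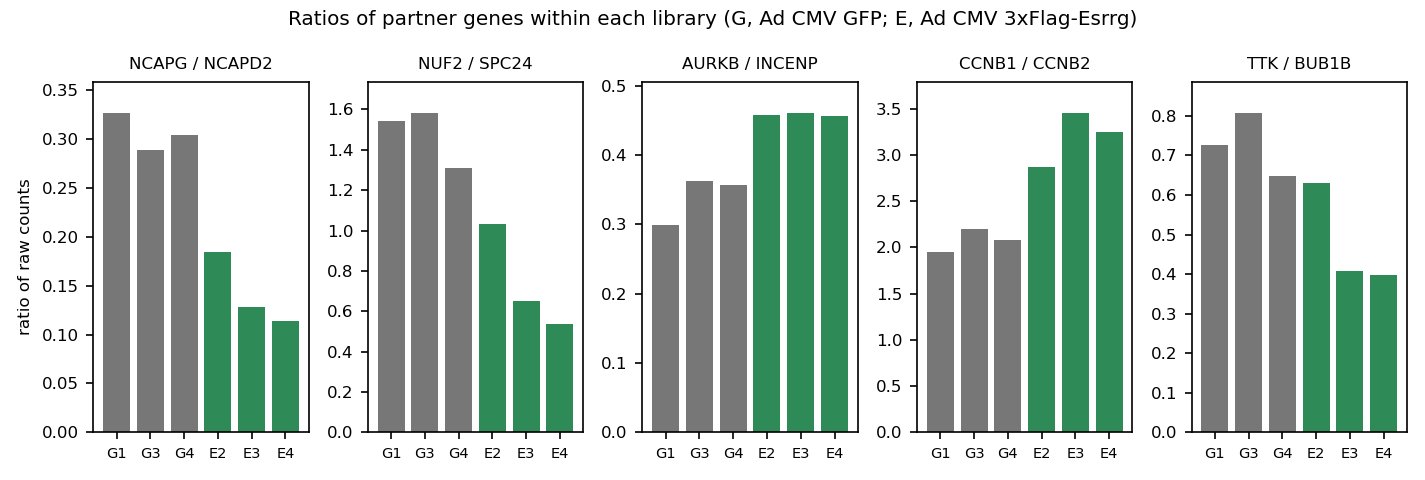
Ratio of raw counts of 2 partner genes within each library (y axes, from 0), which does not depend on scaling between libraries. The ratios were not corrected for the GC content or length of the 2 genes. Grey bars are Ad CMV GFP replicates 1, 3 and 4, green bars Ad CMV 3xFlag-Esrrg replicates 2, 3 and 4. *NCAPG* to *NCAPD2* drops from 0.289 to 0.326 with GFP to 0.114 to 0.184 with *Esrrg*, and no ratio shown overlaps between the groups.

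The 3 cytokinesis genes were all lower in every *Esrrg* library than in any GFP library, and 1 passed the call. *ECT2*, which activates the RhoA GTPase at the division furrow, was at 57.6, 63.9 and 58.9 CPM with GFP and at 41.8, 41.4 and 35.5 CPM with *Esrrg*. Its drop of -0.60 ± 0.10 (SE, adjusted p = 0.000733) was just over the 1.5-fold cutoff. *ANLN*, anillin, the scaffold of the contractile ring, was at 92.5, 102 and 94.6 CPM with GFP and at 68.9, 70.5 and 64.4 CPM with *Esrrg*, just outside the cutoff at -0.51 ± 0.09 (SE, adjusted p = 0.00118). *PRC1*, which bundles midzone microtubules, was at -0.24 (adjusted p = 0.312) on 44 to 67 counts per library. Another gene on the same strand covers 57.6% of the exon bases of *PRC1* and had 101 to 196 counts.

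Neither transcription factor passed the call. *MYBL2*, B-MYB, was at 36.5, 49.1 and 44.7 CPM with GFP and at 49.2, 63.0 and 66.3 CPM with *Esrrg*. The lowest *Esrrg* library was level with the highest GFP library, and the difference was 0.45 ± 0.14 (SE, adjusted p = 0.0206). *FOXM1* was at 45.1, 58.8 and 54.9 CPM with GFP and at 54.5, 67.2 and 75.4 CPM with *Esrrg*, with overlap and an adjusted p of 0.083. Both are known to switch on many of the genes listed here.

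Levels between genes were compared per kilobase of exon, in CPM per kilobase with GFP. *TPX2* (31.6) and *CCNB1* (30) were the highest, with library ranges of 26.8 to 34.6 and 24.9 to 34.1 that overlap, followed by *TOP2A* (24.5), *CDC20* (22.8), *NCAPD2* (22.3) and *UBE2C* (20.9), whose ranges overlap with their neighbours. With *Esrrg* the order was changed. *CCNB1* was at 46.2 and *CDC20* at 39.5 CPM per kilobase, above *TPX2* at 34.9, and *TOP2A* was at 14.4.

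The called members were set apart by exon length and differed, with overlap, in base composition. The choice of members used neither. The 6 genes that rose had exon lengths of 1286 to 2928 bases, and the 12 that fell had 3362 to 12845 bases. Of 12 members under 3000 bases, 6 rose and the others were not called. All 5 members of at least 9000 bases (*ASPM*, *CENPE*, *CENPF*, *KNL1* and *MKI67*) fell. The GC content of the longest transcript was 41.9% to 57.9% in the genes that rose and 35.4% to 48.3% in those that fell, and 9 of the 14 members under 40% GC fell while the others were not called. Across the 44 members, Spearman's rho of the log2 fold change was -0.591 with exon length and 0.699 with GC. These are descriptions across genes that come from the same libraries, and genes are not independent replicates.

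Across the 13746 protein-coding genes both slopes had the same sign as in the members, with rho of -0.263 with length and 0.405 with GC. Across all 24232 tested genes with a known length, rho was 0.363 with GC but 0.128 with length, so the sign of the length slope held among protein-coding genes and not in the whole table. Split into deciles, the shortest protein-coding genes had a median log2 fold change of 0.59 and the longest -0.20. The medians of their lowest and highest GC deciles were -0.31 and 0.54. All 12 members that fell lay below the lower quartile of protein-coding genes in their GC decile. The call rule fixed this, since a 1.5-fold drop lies below the lower quartile of every GC decile, the lowest of which was -0.577. As a description, with no test, 2 of the 6 that rose (*CCNB1* and *AURKA*) lay above the upper quartile. That quartile reached 0.953 in the highest GC decile, beyond 1.5-fold, so the counts of 12 and 2 cannot be compared. *MKI67*, with 48.3% GC and -0.93, lay in a decile (47.7% to 51.0% GC) with a median of 0.24 and a lower quartile of -0.19. *CCNB1*, with 41.9% GC and 0.62, lay in a decile (40.3% to 42.6% GC) with a median of -0.13 and an upper quartile of 0.24.

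**Figure D4:**
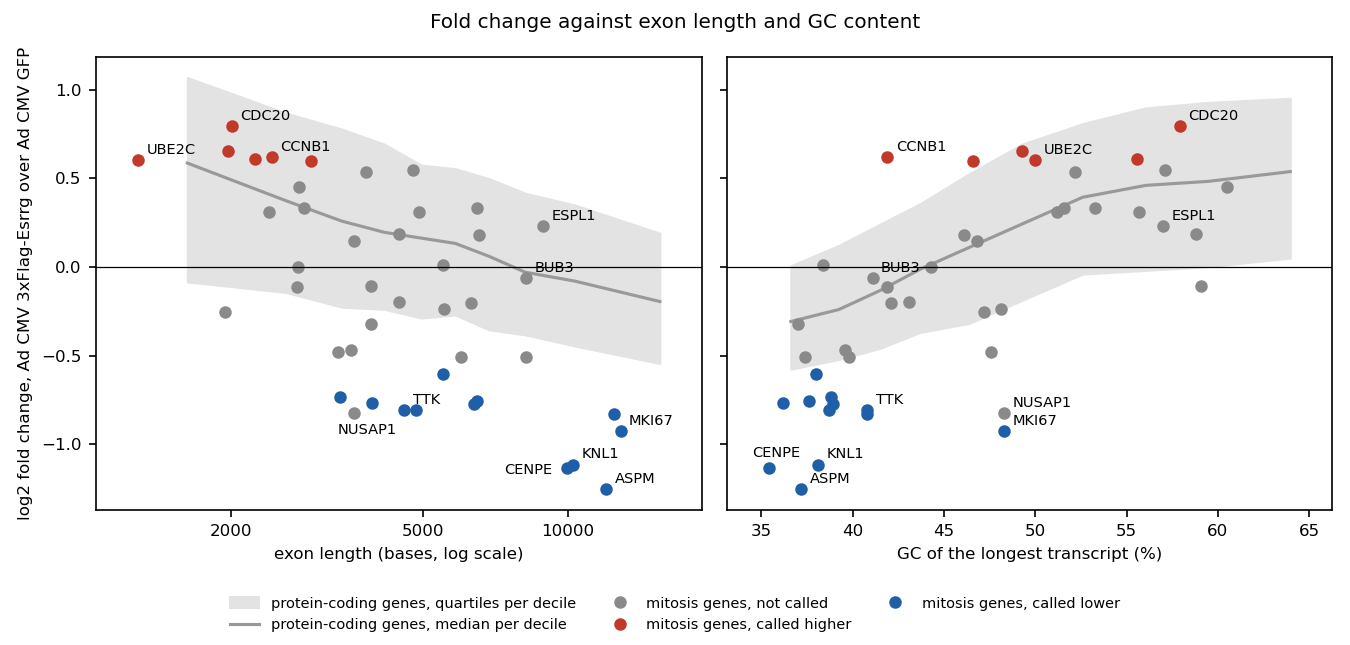
Log2 fold change, Ad CMV 3xFlag-Esrrg over Ad CMV GFP (y axis), of the 44 tested mitosis genes against exon length (left, log scale, bases) and GC content (right, percent); the grey line and band are the median and quartiles of protein-coding genes in deciles. The genes called lower reach -1.25 at lengths of 9000 bases and more, and the medians of protein-coding genes run from 0.59 in the shortest decile to -0.20 in the longest.

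Because of these slopes the calls were also made with gene properties in the fit. With smooth curves for GC and length over all tested genes, 4 members rose (background 15.6%) and 5 fell (background 12.8%). The 4 were *CCNB1*, *AURKA*, *UBE2C* and *PTTG1*, and the 5 were *ASPM*, *CENPE*, *KNL1*, *MKI67* and *TTK*. The ratios of partner genes above were not corrected for GC or length. In this fit *NCAPG* (38.7% GC) was at -0.57 and *NCAPD2* (51.6%) at 0.13. *NUF2* (38.8%) was at -0.49 and *SPC24* (53.3%) at 0.071. *CCNB1* and *CCNB2* were closer in GC (41.9% and 44.3%) and were at 0.84 and 0.0995. With the curves drawn over protein-coding genes alone, 0 members were called higher (background 15.8%) and 9 lower (background 14.3%), 7 of them among the 12. Without the fold cutoff, edgeR gave 3 members higher and 21 lower in that fit, the same at an unadjusted and an adjusted p below 0.05, where 35.6% of the genes in the fit were higher and 28.4% lower at the adjusted p. There *CCNB1* was at 0.55 (adjusted p = 0.00475), *CDC20* at 0.24 (adjusted p = 0.0293) and *AURKB* at 0.080 (adjusted p = 0.436).

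A further fit had the percentage of reads that lay outside genes as its covariate. This percentage hardly varied with GFP (51.3% to 52.2%) and was lower in every *Esrrg* library, so covariate and group are partly confounded. The slope rests mainly on the *Esrrg* libraries, so this is no separate check beside the fit with *Esrrg* replicate 2 alone. In the covariate fit, 0 members were called higher (background 7.24%) and 7 lower (background 5.4%), and 6 of the 7 were among the 12. At an unadjusted p below 0.05 without the fold cutoff 1 was higher (background 18.5%) and 20 lower (background 14.1%). With *Esrrg* replicate 2, the library nearest to the GFP group in that share, as the sole *Esrrg* library, 0 were called higher (background 9.6%) and 8 lower (background 7.63%), all 8 among the 12. At an unadjusted p below 0.05 without the fold cutoff, 4 were higher (background 21.6%) and 23 lower (background 18.5%). That lone library is assumed to vary like the GFP group. Without replicate 2, 9 members were called higher (background 22.9%) and 11 lower (background 20.3%). Leaving out *Esrrg* replicate 3, *Esrrg* replicate 4 or GFP replicate 1 left 2, 1 and 2 members called higher (background 15.2%, 14.6% and 15.4%) and 12, 11 and 12 called lower (background 11.4%, 11.9% and 12.2%). Scaling on library size alone gave 0 higher (background 8.98%) and 19 lower (background 30.9%), with 4 higher (background 16.4%) and 27 lower (background 44.6%) at an unadjusted p below 0.05 without the fold cutoff. Protein-coding genes alone gave 1 higher (*CDC20*, background 20.5%) and 16 lower (background 18.0%).

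*ASPM*, *CENPE*, *KNL1* and *MKI67* were called lower in each of the fits named in the 2 preceding paragraphs. Among the fits drawn in the heat map, their log2 fold changes ran from -1.56 to -0.90 for *ASPM*, from -1.43 to -0.64 for *CENPE*, from -1.43 to -0.80 for *KNL1* and from -1.24 to -0.85 for *MKI67*. The genes that rose kept their sign in all fits of that plot except *PTTG1*, which was at -0.085 with the covariate, but none of the 6 passed the call in every fit.

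**Figure D5:**
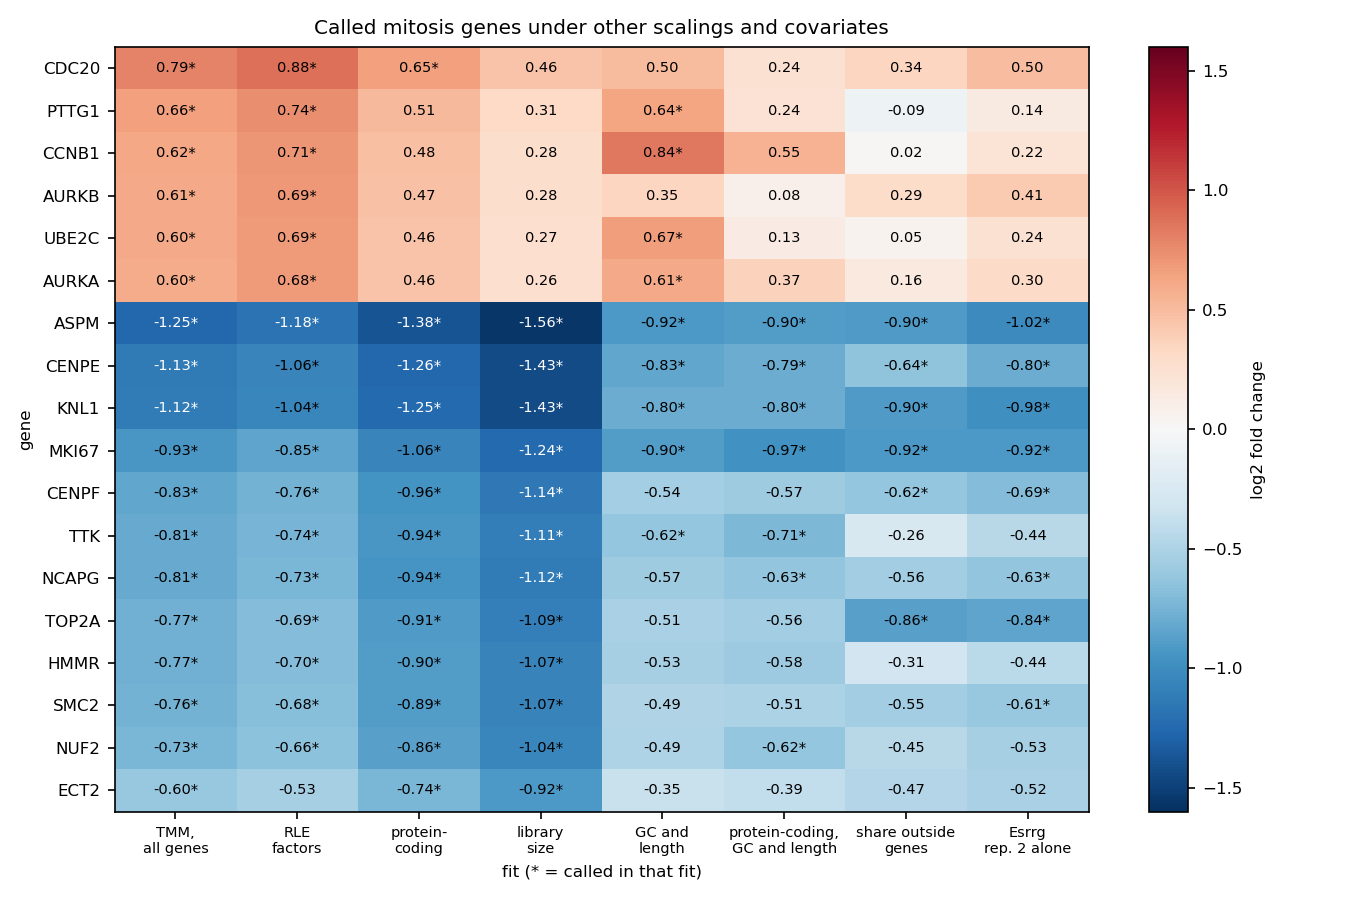
Log2 fold change of the 18 called mitosis genes (rows) under 8 fits (columns), Ad CMV 3xFlag-Esrrg over Ad CMV GFP; red is higher, blue lower, and a star marks a call in that fit. *ASPM*, *CENPE*, *KNL1* and *MKI67* carry a star in each column, and the upper 6 rows carry none with library size scaling, the protein-coding GC and length fit, the covariate or *Esrrg* replicate 2 alone.

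For comparison, 123 other genes of the mitotic pathway were listed, of which 121 were tested. Of these 21 rose (17.4%) and 20 fell (16.5%), close to the 17.3% and 16.8% of all tested genes. Of protein-coding genes 25.9% were called higher and 12.4% lower, so beside these the list had fewer rises and more drops. The core of the anaphase promoting complex and its partners had 6 of 17 genes higher and 1 lower. Cohesin and its regulators, which hold sister chromatids together until anaphase, had 7 of 16 genes lower and the other 9 not called. With the GC and length curves over all genes the counts of the whole list were 15 higher (background 15.6%) and 4 lower (background 12.8%). Over protein-coding genes they were 5 higher (background 15.8%) and 5 lower (background 14.3%). With the curves over all genes, the anaphase promoting complex group had 5 higher and 0 lower. The cohesin group had 0 higher and 2 lower there. With the covariate for reads outside genes, the first group had 1 higher and the cohesin group 2 lower (background 7.24% higher and 5.4% lower).

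*UBE2S*, which extends ubiquitin chains on substrates of the anaphase promoting complex, was at 51.8, 70.3 and 65.6 CPM with GFP and at 114, 172 and 192 CPM with *Esrrg* (1.35 ± 0.18, SE, adjusted p = 0.000253). *ANAPC11*, the RING subunit of that complex, rose by 1.08 ± 0.18 (adjusted p = 0.000714) from 38.2 to 48.4 CPM to 66.0 to 113 CPM. Both had no overlap, like *CDC20* and *UBE2C* above. *ANAPC4*, a scaffold subunit of the same complex, fell by 0.85 on the log2 scale (adjusted p = 0.000599), so the complex was not uniform. *E2F4*, an E2F of the DREAM complex, rose (0.95, adjusted p = 0.000218), as did the phosphatase *CDC25A* (0.94, adjusted p = 0.000254) and *CHMP4B*, a membrane scission factor of late cytokinesis (0.92, adjusted p = 0.00107).

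*RAD21*, the cohesin subunit that separase cuts, was at 161, 159 and 160 CPM with GFP and at 67.7, 69.8 and 69.6 CPM with *Esrrg*. Its libraries were nearly level within each group, replicate 2 included, and the log2 fold change was -1.21 ± 0.09 (SE, adjusted p = 7.5e-06). *STAG2*, another cohesin subunit, was at -0.96 (adjusted p = 0.000231), and *SGO2*, which shields cohesin at centromeres, at -0.93 (adjusted p = 0.000758). *CKAP2L*, a spindle protein, was at -0.84 (adjusted p = 0.000364). The groups did not overlap for any of these 4 genes.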

How the data were processed

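RNA sequencing of 6 SH-SY5Y libraries (3 per group) was analysed, with groups and replicate numbers from the labels. The submitters' processing notes name Trim Galore 0.6.7, STAR 2.7.9a, HTSeq 0.11.3 and the build GRCh38. The study's methods describe trimming, alignment and counting per gene with other versions of these tools, for its mouse data. The authors deposited raw counts for 67060 genes, together with totals of reads that were not assigned to a gene. Those totals stayed out of library sizes and tests. The annotation release and the strand setting are not given in the sources used here. A read over 2 genes may have been left out of both, which lowers the count of overlapping genes.

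Symbols, lengths (union of exons) and GC content came from GENCODE release 44 by identifier, in which 6641 genes (9.9%) were not found. Members and lists were chosen with earlier results of these data known. Counts were filtered with filterByExpr (24500 genes), scaled by TMM and compared with the quasi-likelihood test of edgeR 4.0.16 in R 4.3.3, with Benjamini-Hochberg adjustment over all tested genes. The 1.5-fold cutoff is the one that the study's methods give for its mouse data. SE is the size of the log2 fold change divided by the root of its F statistic. Normalised CPM uses effective library sizes. All 45 members could be named. Values in each library are given for *ESRRG*, the 2 members of each role with the largest change, and called members opposite to the median. Of the other pathway genes the 5 called with the largest rise and the 5 with the largest drop are named, and *HMMR*, *CENPF*, *TOP2A* and the remaining members are given by their fold change or range.

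Alternatives were DESeq2 1.42.0, RLE factors, library size only, protein-coding genes only, other filters and cutoffs, each library left out, *Esrrg* replicate 2 alone, the replicate number as a block, a covariate for reads outside genes, and offsets for GC and length (mgcv 1.9.3). GC alone, length alone, and GC and length over protein-coding genes were added after seeing the data. GC and length were known for 98.9% of tested genes. Promoter sequences are from RefSeq. *NUSAP1*, *PRC1* and *SPC25* had under 100 counts in every library, which limits the precision of their values, and the other members had over 100. pandas 2.3.3 and matplotlib 3.10.9 made the tables and plots.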

Additional observations from a re-analysis of the deposited data

Results flagged for a closer look

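In the totals of reads not assigned to a gene, 2 kinds stood above the level of all GFP libraries. Ambiguous reads, which overlap more than 1 gene, made up 5.69%, 9.84% and 9.79% of the reads in *Esrrg* replicates 2, 3 and 4, against 4.55% to 4.87% with GFP. Reads aligned to several places made up 9.33%, 12.7% and 13.0%, against 7.16% to 7.41% with GFP. In both, replicates 3 and 4 were alike and replicate 2 lay between them and the GFP group, the same order as in the 6 mitosis genes that rose. The part of these reads in the fold changes of the mitosis genes was not tested.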

How the results depend on the processing

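The main limits are 3 libraries per group, a share of reads outside genes that differs between groups, and an *Esrrg* group of which replicate 2 differs from the others. No called mitosis gene was called in the opposite direction under any alternative. The 6 genes called higher became 0 with *Esrrg* replicate 2 alone, library size only, the covariate, the protein-coding fit with GC and length, a test against a 1.5-fold threshold or a 2-fold cutoff, 1 with protein-coding genes only, 3 with length correction alone or at least 10 counts in every library, 10 with no fold cutoff, and 1 to 9 with a library left out. The 12 called lower became 5 with GC and length, 4 with GC alone or the threshold test, 3 at 2-fold and 7 with the covariate. They became 19 with library size only and 11 to 12 with a library left out. Among all tested genes, 12.9% were lower with GC alone, and 5.66% were lower and 9.01% higher in the threshold test. With length alone 17.9% were higher. At 2-fold 1952 of the 24500 tested genes were higher and 1982 lower. With at least 10 counts in every library 3849 of 21255 were higher. The median of -0.16 was -0.25 with replicate 2 alone, -0.019 with DESeq2, 0.014 with GC alone, -0.48 with library size only, -0.29 with protein-coding genes only or the covariate, -0.054 with the replicate block, and -0.19 to -0.011 with a library left out. The causes of these changes were not tested.

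Of the other pathway genes, the 21 called higher became 4 with replicate 2 alone, library size only or the threshold test, 5 with the protein-coding GC and length fit, 10 with protein-coding genes only, 1 with the covariate, 34 with no fold cutoff and 2 at 2-fold. The 20 called lower became 8 with replicate 2 alone, 12 with DESeq2, 13 with RLE factors, 4 with GC and length or the covariate, 2 with GC alone, 39 with library size only, 5 with the protein-coding GC and length fit, 11 with the replicate block and GC and length together, 3 with the threshold test, 37 with no fold cutoff and 1 at 2-fold. All genes called numbered 8351, and 4586 with replicate 2 alone, 4137 and 5282 with protein-coding genes only with and without GC and length, 3096 with the covariate, 3594 with the threshold test and 3934 at 2-fold. Of these calls 50.7% were higher, against 22.5% with library size only, 63.0% with DESeq2 and 61.4% with the threshold test.

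GFP and *Esrrg* share the replicate numbers 3 and 4, which may be names only. Same-numbered libraries did not deviate together (r across genes of 0.075 and -0.0001, crossed 0.0999 and 0.0184). With the replicate block on these 4 libraries, 8 mitosis genes were called higher (background 21.7%) and 12 lower (background 19%), and with the block and GC and length 4 (background 17.8%) and 11 (background 15.3%).

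Changes of sign, other than that of *PTTG1* (-0.085 with the covariate), were in members that were not called. With GC and length, *CCNA2* was at 0.075, *CCNB2* at 0.0995, *BUB3* at 0.17, *INCENP* at -0.22, *ESPL1* at -0.074 and *FOXM1* at -0.027. With GC alone, *CCNA2* was at 0.18, *CCNB2* at 0.22, *CDK1* at 0.077, *BUB1* at 0.078, *BUB1B* at 0.053, *BUB3* at 0.26, *INCENP* at -0.13 and *ESPL1* at -0.024. With the block and GC and length, *CCNA2* was at 0.098, *CCNB2* at 0.16, *CDK1* at 0.027, *BUB3* at 0.26, *INCENP* at -0.25, *ESPL1* at -0.20, *FOXM1* at -0.068 and *MYBL2* at -0.011. With the replicate block, *CCNB2* was at 0.12 and *BUB3* at 0.084. With RLE factors *CCNB2* was at 0.081 and *BUB3* at 0.017, with DESeq2 0.095 and 0.031, and with no filter *CCNB2* was at 0.0053. In the protein-coding fit with GC and length, *TPX2* was at -0.046, *BUB3* at 0.13, *INCENP* at -0.23, *CDCA8* at -0.15, *ESPL1* at -0.055, *SPC24* at -0.15, *FOXM1* at -0.080 and *MYBL2* at -0.072. With replicate 2 alone, *TPX2* was at -0.15, *MAD2L1* at -0.26, *INCENP* at -0.0098, *CDCA8* at -0.0090, *SPC24* at -0.013 and *NCAPH* at -0.018. With library size only, *TPX2* was at -0.19, *MAD2L1* at -0.32, *INCENP* at -0.14, *CDCA8* at -0.026, *ESPL1* at -0.091, *SPC24* at -0.0036, *NCAPH* at -0.15 and *FOXM1* at -0.019. With the covariate, *TPX2* was at -0.31, *MAD2L1* at -0.39, *INCENP* at -0.12, *CDCA8* at -0.17, *SPC24* at -0.20, *NCAPD2* at -0.037, *NCAPH* at -0.13 and *FOXM1* at -0.11. *MAD2L1* was at -0.016 with at least 10 counts in every library, -0.056 with length alone and -0.13 with protein-coding genes only. With a library left out, *CCNA2* ran from -0.16 to 0.021, *CCNB2* from -0.080 to 0.21, *CDC25B* from -0.18 to 0.076, *BUB3* from -0.10 to 0.12 and *MAD2L1* from -0.073 to 0.24. The remaining values kept their sign.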
